A study of Mus musculus with 2 samples.

Results

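Zic1, Zic4, Zic2 and Zic5 are 4 of the 21829 protein-coding genes on the mouse assembly mm10 in the GENCODE M21 annotation. They were selected on measured values of these same data, the many DNase-seq peaks and footprints that both loci carried, so their peak counts, footprint counts and promoter heights are given as a description, with no test. For each animal the larger of its deposited peak lists was used. Peaks and footprints were counted in each gene's territory, the gene body plus 10 kb on each side, and a promoter window covered 1 kb on each side of every protein-coding start. The genes form a pair of loci, Zic1 with Zic4 on chromosome 9 and Zic2 with Zic5 on chromosome 14, and the members of a pair share part of their territory, so each pair was also counted as 1 stretch.

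DNase-seq cuts the DNA of isolated nuclei with the nuclease DNase I and reads where it was cut: accessible regulatory DNA appears as peaks, and short stretches protected from cutting inside it appear as footprints. The material was whole cerebellum from males of the hybrid strain B6CASTF1/J, the first-generation cross of B6 and CAST mice, at 36 days of age, with no treatment or mutation named. The 2 animals, replicates 1 and 2, gave 1 library each and form 1 group. The labels describe them as separate males but give both the same donor entry, and list instrument models for replicate 1 alone. No other tissue, age or genotype was compared here. Where 2 values stand together, the first is from replicate 1 and the second from replicate 2.

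ZIC proteins are transcription factors with C2H2 zinc fingers related to those of the GLI proteins of the hedgehog pathway. In mammals most Zic genes lie in head-to-head pairs, with starts close together and transcription running outwards. In the cerebellum they are known for their activity in granule cell precursors and granule cells. Loss of ZIC1 and ZIC4 has been linked to Dandy-Walker malformation of the cerebellum, and loss of ZIC2 to holoprosencephaly. Whole tissue mixes cell types, so fewer cells of a type and lower accessibility per cell cannot be told apart.

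The 5 sequences that follow are stretches covered by a peak in both animals, read on the forward strand of GRCm38.p6 (mm10), 5′ to 3′. Capitals mark bases that lay inside a footprint in both animals. The first 3 are the strong peaks of the Zic1/Zic4 locus, shown because they were found in both animals although most weaker peaks over both genes were not. The last 2 are the strong peak upstream of the Zic2 start and the highest peak past the Zic2 3′ end.
Zic1 promoter, chr9:91365821-91366020: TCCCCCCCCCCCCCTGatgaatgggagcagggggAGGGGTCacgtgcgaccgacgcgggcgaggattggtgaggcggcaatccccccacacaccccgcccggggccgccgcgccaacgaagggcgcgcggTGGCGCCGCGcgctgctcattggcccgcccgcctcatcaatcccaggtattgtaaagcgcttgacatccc
Distal peak past the Zic1 3′ end, chr9:91355741-91355920: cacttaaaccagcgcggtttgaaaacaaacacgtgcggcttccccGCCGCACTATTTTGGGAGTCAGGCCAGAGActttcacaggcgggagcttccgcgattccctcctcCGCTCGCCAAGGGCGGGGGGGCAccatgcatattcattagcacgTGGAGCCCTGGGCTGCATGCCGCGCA
Zic4 intron peak, chr9:91381401-91381700: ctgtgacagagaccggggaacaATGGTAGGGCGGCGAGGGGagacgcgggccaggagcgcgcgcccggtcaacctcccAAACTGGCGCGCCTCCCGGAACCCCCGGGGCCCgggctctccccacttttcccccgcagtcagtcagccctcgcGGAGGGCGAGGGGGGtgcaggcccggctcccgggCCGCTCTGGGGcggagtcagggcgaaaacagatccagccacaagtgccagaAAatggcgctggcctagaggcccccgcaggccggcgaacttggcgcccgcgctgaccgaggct
Upstream peak of Zic2, chr14:122474221-122474400: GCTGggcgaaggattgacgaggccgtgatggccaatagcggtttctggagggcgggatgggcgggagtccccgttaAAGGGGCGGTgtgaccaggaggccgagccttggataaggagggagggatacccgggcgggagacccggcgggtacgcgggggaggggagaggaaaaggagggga
Peak past the Zic2 3′ end, chr14:122484201-122484440: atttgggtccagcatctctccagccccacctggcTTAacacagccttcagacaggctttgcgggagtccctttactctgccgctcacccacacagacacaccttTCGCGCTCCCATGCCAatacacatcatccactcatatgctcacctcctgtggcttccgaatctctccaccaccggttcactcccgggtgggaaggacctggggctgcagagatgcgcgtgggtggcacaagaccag
The Zic1 promoter stretch starts 11 bp upstream of the Zic1 start, which is on the reverse strand, and lies inside an intron of the longest Zic4 transcript. The distal stretch is intergenic, and the Zic4 intron stretch lies 2759 bp past the last protein-coding start of Zic4. The upstream Zic2 stretch lies 1035 bp before the Zic2 start, in an intron of the noncoding gene 2610035F20Rik, and the last stretch is intergenic. Footprinted in both animals were 33 of the 200 bp at the Zic1 promoter, 79 of the 180 bp of the distal peak, 80 of the 300 bp of the Zic4 intron peak, 14 of the 180 bp upstream of Zic2, and 19 of the 240 bp past Zic2. The distal Zic1/Zic4 peak therefore carried the densest shared footprints of the 5 stretches. GC content of the stretches was 71.5%, 61.1%, 72.3%, 67.2% and 58.8%, in the order printed.

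Series-wide, the larger lists held 140127 and 114404 peaks with median heights of 0.764 and 0.899, and the footprint lists held 342409 and 262603 entries. Heights are the authors' own values, usable to rank peaks of 1 list but not to measure a change between animals. The tissue label was checked by promoter peaks at markers. All 5 granule cell markers had one in both animals, as did 3 of 4 Purkinje cell markers and 4 of 4 markers of Bergmann glia and astrocytes, while 0 of 3 microglial and 0 of 2 liver markers did. Oligodendrocyte markers had one at 2 and 1 of 3 genes, and forebrain neuron markers at 2 and 1 of 5. Of all protein-coding genes 67% and 63.5% had one, and 62.9% in both animals, so presence alone says little. Median heights, with genes that lacked a peak taken as 0, were 13.5 and 7.68 for granule cell markers. They were 0.951 and 0.711 for Purkinje cell markers and 0.770 and 0.686 for Bergmann glia and astrocytes, beside 2.81 and 1.96 over all protein-coding genes. Meningeal cells also express Zic genes. Of their 4 markers Col1a1 stood at 8.03 and 4.33, Foxc1 at 0.927 and 0.681 and Foxc2 at 0.775 and 0.553, and Lum had no promoter peak. The part of meningeal cells in the Zic signal was not tested.

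At all 4 Zic genes both animals had a promoter peak, where 67% of all protein-coding genes had one in replicate 1, 63.5% in replicate 2 and 62.9% in both. Zic2 had the highest promoter peak of the 4 and Zic4 the lowest, in each animal. The Zic2 peak, which also covers the start of 2610035F20Rik on the other strand, reached 18.6 (chr14:122475021-122475340) and 10.97 (chr14:122474981-122475480), at percentiles 80.6 and 73.9 of all promoters with a peak. The Zic1 peak reached 13.3 (chr9:91365821-91366020) and 9.58 (chr9:91365821-91366040), at percentiles 65.1 and 66.7. Zic5, the partner of Zic2, had its promoter peak in the 5′ UTR, with heights of 10.3 (chr14:122465481-122465700) and 6.70 (chr14:122465441-122465700) at percentiles 54.3 and 50.3. For promoters with a peak the median height was 9.10 and 6.65. So the promoters of Zic1, Zic2 and Zic5 were ordinary to high in strength, and none passed percentile 80.6 of its list.

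Zic4 had 6 protein-coding starts, more than the other members, and a weaker promoter signal at each. The first start, at chr9:91362413, lies inside the Zic1 gene body, and the last, at chr9:91378642, lies well downstream. Its highest window peak stood at the last start, with heights of 4.46 (chr9:91377841-91378020) and 3.22 (chr9:91377919-91377979) at percentiles 31.8 and 28.9. At the other 5 starts replicate 1 had window peaks whose highest values ran from 1.06 to 1.77, and replicate 2 had none. In both animals the last start was thus the start with the highest peak. With a window of 500 bp the Zic4 heights were 3.08 and 2.03, and in the smaller peak lists replicate 2 had no Zic4 promoter peak. The Zic4 promoter windows do not reach the Zic1 promoter peak.

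Peak density was high at all 4 genes, as their selection on peaks and footprints fixed. Zic1 held 33 and 16 peaks in its territory, a mean of 24.5 ± 12.02 (SD, n = 2), or 11.9 and 5.77 per 10 kb. That put Zic1 at rank 19 and rank 51 from the top of all protein-coding genes. Zic4 held 41 and 17 peaks, a mean of 29.0 ± 16.97 (SD, n = 2), or 8.74 and 3.62 per 10 kb, at ranks 70 and 326. For both genes of this pair the animals stood far apart, and replicate 1 had more peaks.

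Zic2 held 24 and 28 peaks, a mean of 26.0 ± 2.8 (SD, n = 2), or 9.83 and 11.5 per 10 kb, at ranks 42 and 2. Zic5 held 25 and 27 peaks, a mean of 26.0 ± 1.4 (SD, n = 2), or 8.66 and 9.35 per 10 kb, at ranks 74 and 4. In replicate 2 both genes of this pair therefore stood among the first 4 of all protein-coding genes. Overlapping peaks of 1 list were each counted, and ranks on merged peaks were not worked out. By number of peaks with no regard to length the members stood lower, Zic1 at percentiles 98.1 and 94.6, Zic4 at 99.0 and 95.2, Zic2 at 96.2 and 98.4, and Zic5 at 96.4 and 98.3 of those genes. Over all protein-coding genes the median density was 0.830 and 0.712 peaks per 10 kb. Among genes with territories of similar length, between 4632 and 8195 of them, the 4 members stood at percentiles from 99.4 upwards in both animals.

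**Figure D1:**
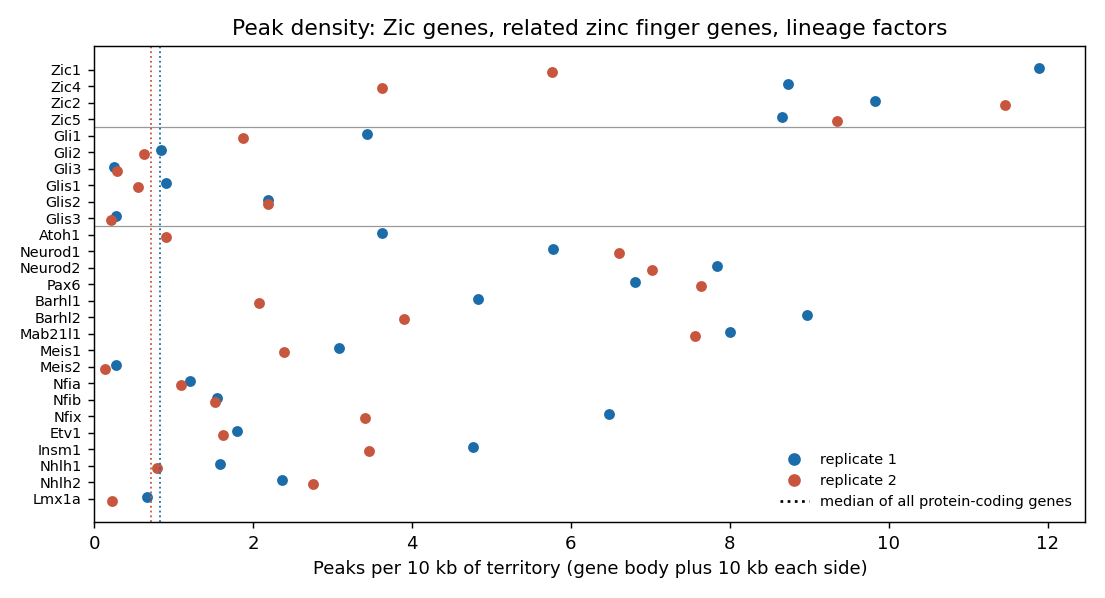
Peaks per 10 kb of territory (x axis) for the 4 Zic genes, 6 related zinc finger genes and 17 granule cell lineage transcription factors, 1 point per animal; dotted lines mark the medians of all protein-coding genes, 0.830 and 0.712. In replicate 1 the Zic genes lie between 8.66 and 11.9, and in replicate 2 Zic1 and Zic4 stand at 5.77 and 3.62 and Zic2 and Zic5 at 11.5 and 9.35.

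Footprint counts showed the same gap between animals at Zic1 and Zic4. Zic1 held 85 and 40 footprints, Zic4 118 and 32, Zic2 77 and 71, and Zic5 87 and 79. Per 10 kb this was 30.6 and 14.4 for Zic1, 25.1 and 6.82 for Zic4, 31.5 and 29.1 for Zic2, and 30.1 and 27.4 for Zic5. By this density Zic1 stood at ranks 19 and 171 of all protein-coding genes and Zic4 at 57 and 2067. Zic2 stood at 14 and 2 and Zic5 at 20 and 4. Zic2 and Zic5 thus kept nearly the same footprint density in both animals, with slightly fewer footprints but more peaks in replicate 2, and Zic4 had the widest gap between animals.

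As 1 stretch, the Zic1/Zic4 pair (chr9:91348058-91399348, 51291 bp) held 46 and 20 peaks, a mean of 33 ± 18.4 (SD, n = 2), and 130 and 52 footprints. The Zic2/Zic5 pair (chr14:122446795-122489852, 43058 bp) held 36 and 45 peaks, a mean of 40.5 ± 6.4 (SD, n = 2), and 114 and 110 footprints. Some of these peaks overlap or touch another peak of the same animal. Merged, they numbered 43 and 16 at Zic1/Zic4 and 34 and 38 at Zic2/Zic5. Series-wide only 0.836% and 1.01% of peaks overlapped an earlier one, so peak counts here hold more repeats than the lists as a whole. Per 10 kb the Zic1/Zic4 pair had 0.608 more peaks than the Zic2/Zic5 pair in replicate 1 and 6.55 fewer in replicate 2. The mean difference of -2.97 was smaller than its SD of 5.06 (n = 2), and its sign differed between the animals. No order of the pairs by peak density can be given from these animals.

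A measure not used in choosing the genes, the share of territory bases that the authors list with a cut rate significant at a false discovery rate of 0.05, showed the same layout. It is not independent of the peaks, since it comes from the same cuts. Zic2 had 43.0% and 49.2% of its territory in such bases, at ranks 24 and 1 of all protein-coding genes. Zic5 had 35.9% and 38.9%, at ranks 54 and 4. Zic1 had 47.0% and 23.6%, at ranks 14 and 43, and Zic4 35.6% and 11.9%, at ranks 56 and 831. At Zic2 and Zic5 the animals were close, with SDs of 4.44 and 2.11 percentage points (n = 2), and at Zic1 and Zic4 they were far apart, with SDs of 16.5 and 16.8 (n = 2).

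**Figure D2:**
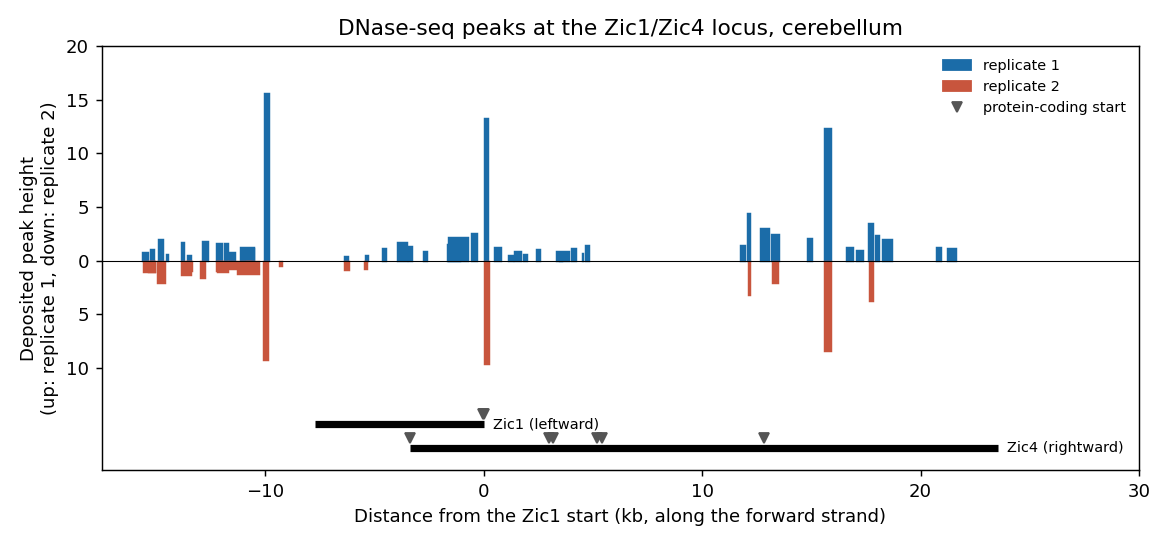
Height of each deposited peak (y axis; replicate 1 upward, replicate 2 downward) by distance from the Zic1 start (x axis, kb); bars span each peak, black lines are gene bodies and triangles protein-coding starts. The 3 strong peaks stand in both animals at 15.6, 13.3 and 12.3 (upward) and 9.23, 9.58 and 8.37 (downward), while most lower peaks right of the Zic1 3′ end stand upward only.

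Walking along the Zic1/Zic4 locus, the animals differed in some stretches and not in others. In the 10 kb past the Zic1 3′ end both animals had 13 peak midpoints, with 25 and 35 footprints. This stretch holds the distal peak printed above, of height 15.6 and 9.23, the highest of the locus in replicate 1 and the second highest in replicate 2. Over the Zic1 gene body replicate 1 had 9 peaks and replicate 2 had 2, with 32 and 2 footprints. Between the Zic1 start and the second Zic4 start, 3001 bp, the counts were 6 and 1, with 17 and 3 footprints. From there to the Zic4 3′ end they were 18 and 4, with 56 and 12 footprints. Neither animal had a peak or a footprint in the 10 kb past the Zic4 3′ end. The gap between the animals thus lay over the transcribed parts and the space between starts, and not in the distal stretch.

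Peaks of both animals at the Zic1/Zic4 locus merged into 41 regions, of which 15 were found in both animals, 25 in replicate 1 alone and 1 in replicate 2 alone. The highest region seen in replicate 1 alone reached 3.08, over the last Zic4 start, and the region seen in replicate 2 alone reached 0.494. Of the 20 peaks of replicate 2, 19 overlapped a peak of replicate 1, or 95%, whereas 19 of the 46 peaks of replicate 1, or 41.3%, overlapped one of replicate 2. Series-wide these shares were 80.4% in replicate 2 and 65.8% in replicate 1. Replicate 2 therefore held nearly a subset of the replicate 1 map at this locus. By place, 16 of the 41 regions were intronic, 16 exonic and 9 intergenic.

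The lists also differed there in how a peak's height related to its false discovery rate. For each peak the most significant listed base was compared with that of all peaks within 10% of its height in the same animal. In replicate 2 the 5 peaks from the Zic1 start to the Zic4 3′ end all stood among the lowest 5% of peaks of like height. The Zic1 promoter peak of replicate 2, of height 9.58, had a -log10 false discovery rate of 8.503, where the median for its height was 78.4. The Zic4 intron peak, of height 8.37, had 12.1 where the median was 65.5. The distal peak past Zic1, of height 9.23, had 79.2 beside a median of 76.4.

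Replicate 1 did not show this to the same degree. Its Zic1 promoter peak had 123 beside a median of 118, and its Zic4 intron peak 67.6 beside 106. Of its 24 peaks from the Zic1 start to the Zic4 3′ end, 1 stood in the lowest 5% for its height, and the median of these peaks had 15.3% of like-height peaks below it. In the distal stretch past Zic1 the medians were 55.0% and 53.4%, with 0 peaks in the lowest 5% in both animals. So in replicate 2 the listed peaks from the Zic1 start to the Zic4 3′ end had weak false discovery rates for their height. That did not hold over the Zic1 gene body, where replicate 2 also had few peaks: its 2 peaks had a median of 46.5% of like-height peaks below them, and 0 stood in the lowest 5%. What set those rates, and whether DNA was less accessible at the locus in replicate 2, was not tested.

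**Figure D3:**
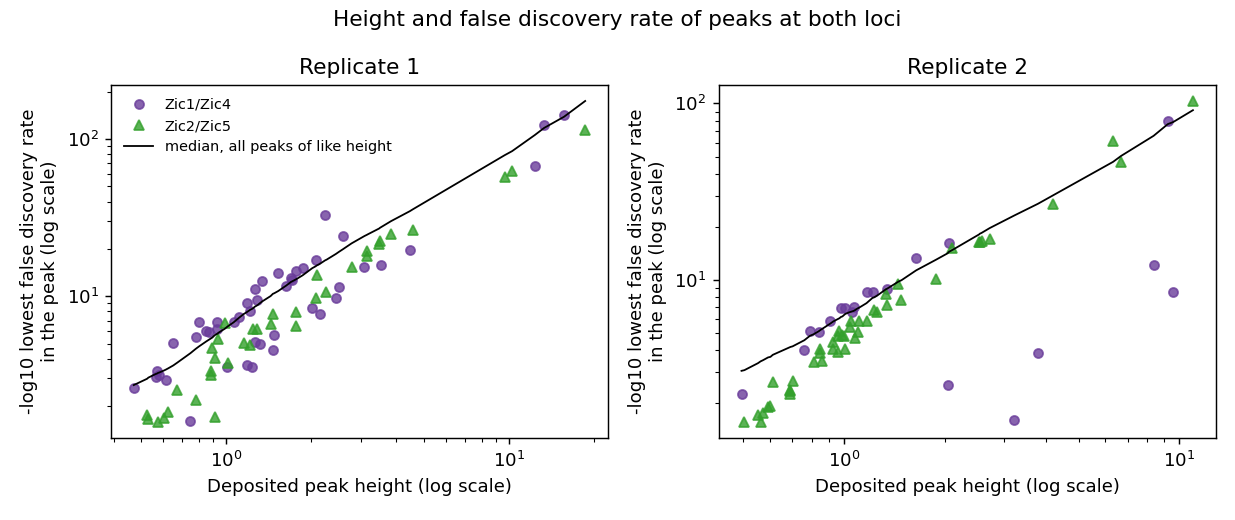
Deposited height of each peak of both loci (x axis, log scale) against the -log10 of the lowest false discovery rate listed in it (y axis, log scale), 1 panel per animal; the line is the median over all peaks of like height in that animal. In replicate 2, 5 Zic1/Zic4 peaks lie far below the line, including the Zic1 promoter peak at 8.503 where the median is 78.4, while Zic2/Zic5 peaks lie close to it or somewhat below.

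Among the 1185 genes with at least 20 peaks in replicate 1, a choice that favours high ratios, the median ratio of peaks in replicate 1 to replicate 2 was 1.28. Zic1 had a ratio of 2.06, reached by 16.5% of those genes, and Zic4 a ratio of 2.41, reached by 12.4%. Zic2 had 0.857 and Zic5 0.926, ratios at or above which stood 97.7% and 94.0% of those genes. The pairs thus lay on opposite sides of that median, and the gap at Zic1/Zic4 was not unusual in size for genes with many peaks.

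**Figure D4:**
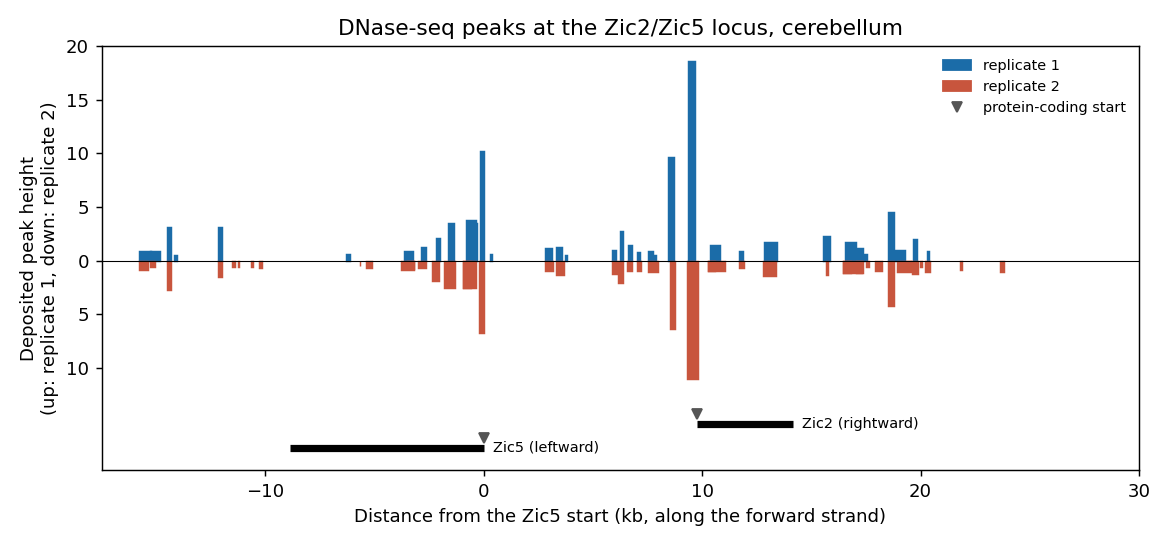
Height of each deposited peak (y axis; replicate 1 upward, replicate 2 downward) by distance from the Zic5 start (x axis, kb); bars span each peak, black lines are gene bodies and triangles protein-coding starts. The peaks of both animals mirror each other, with the promoters of Zic5 (10.3 and 6.70) and Zic2 (18.6 and 10.97) and the upstream Zic2 peak (9.66 and 6.34) highest in both.

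At the Zic2/Zic5 locus the animals had nearly the same layout. The 10 kb past the Zic5 3′ end had 5 and 8 peak midpoints, the Zic5 gene body 8 and 10, the space between the starts 12 and 9, the Zic2 gene body 3 and 4, and the 10 kb past the Zic2 3′ end 8 and 14. Replicate 2, the library with fewer peaks in all, had more peaks than replicate 1 in each of these stretches but the space between the starts. The 41 merged regions included 27 found in both animals, 4 in replicate 1 alone, up to a height of 0.672, and 10 in replicate 2 alone, up to 1.01. Every region of the locus above those heights was therefore found in both animals. By place, 22 regions were intergenic, 11 intronic and 8 exonic, so this locus had more of its regions outside the genes.

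Of the 36 replicate 1 peaks at Zic2/Zic5 32 overlapped one of replicate 2, or 88.9%, and 34 of the 45 peaks of replicate 2, or 75.6%, overlapped one of replicate 1. Beside the highest promoter peaks, strong shared regions were the upstream Zic2 peak of height 9.66 and 6.34, which reaches the edge of the Zic2 promoter window in replicate 2, and the peak past the Zic2 3′ end of height 4.57 and 4.19. A Zic5 coding exon inside the Zic5 promoter window held a further region of height 3.83 and 2.54 (chr14:122464741-122465380) with 10 and 8 footprints. The median Zic2/Zic5 peak had 23.4% and 36.5% of like-height peaks below it in false discovery rate, so rates were somewhat weak for their height in both animals.

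The space between the Zic5 and Zic2 starts, 9757 bp, was compared with all pairs of protein-coding neighbours that face away from each other within 20 kb. There were 2759 such pairs, of which 1558 had at least 2 kb between starts, with medians of 1 peak in both animals and 5 and 4 footprints. The Zic5-Zic2 space held 12 and 9 peak midpoints, and 8 and 4 of the 1558 pairs, its own included, had as many or more. It held 43 and 33 footprints, a count reached by 3 and 5 pairs. The Zic5-Zic2 space is longer than the median of all 2759 pairs, 3689 bp, and 27.1% of those had as long a space. All of these lie among the 1558 compared, so within the 1558 its length is less unusual. The choice of these genes for many peaks and footprints favours higher counts. Between Zic1 and the second Zic4 start the 6 and 1 peaks were matched by 57 and 1102 of the 1558 pairs. By count that space stood high in replicate 1 and not in replicate 2. Its 3001 bp are fewer than the 3689 bp median, which favours lower counts, and 53.2% of the 2759 pairs had as long a space. It was measured to the second Zic4 start because the first lies inside the Zic1 gene body.

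**Figure D5:**
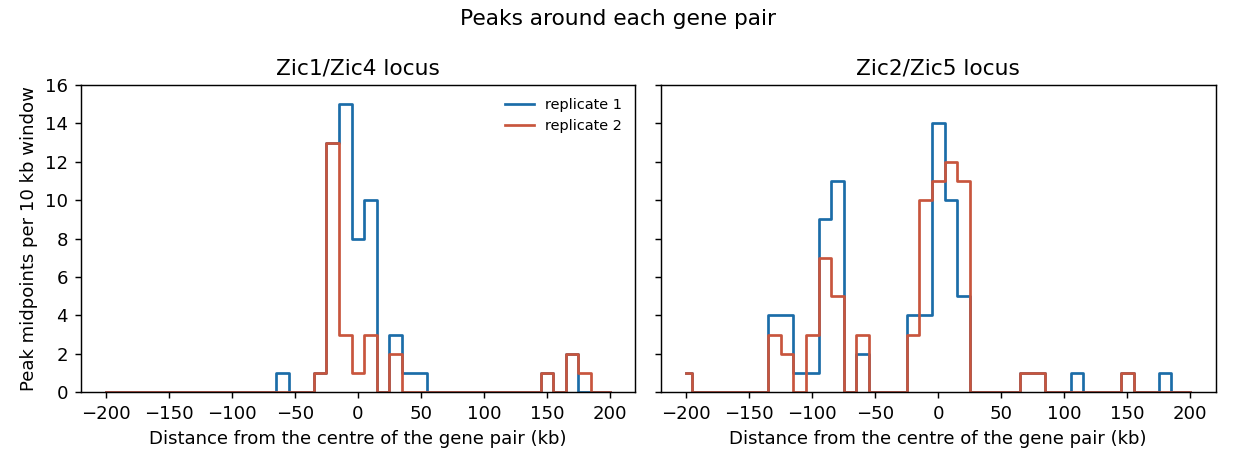
Peak midpoints per 10 kb window (y axis) by distance from the centre of each gene pair (x axis, kb), 1 line per animal. Peaks at the Zic1/Zic4 locus are packed within 25 kb, 46 and 20 of them, with 6 and 4 beyond 35 kb, whereas the Zic2/Zic5 locus has 38 and 27 beyond 35 kb, most of them in a second group before the pair.

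Out to 200 kb on each side, the Zic1/Zic4 cluster stood nearly alone. Within 25 kb of the Zic1/Zic4 centre lay 46 and 20 peaks, and beyond 35 kb the 34 windows of 10 kb held 6 and 4, with 29 and 31 windows empty. That flank averaged 0.176 and 0.118 peaks per window, below the genome means of 0.514 and 0.420. The fullest window of each animal held 15 and 13 peaks, a count that 0.0264% and 0.0132% of genome windows reached. These were different windows. The one at -10 kb held 15 and 3 peaks, and the one at -20 kb held 13 in both animals. The genes were chosen for many peaks and the fullest window was taken, so these shares are only a description. The Zic1/Zic4 cluster, dense by that choice, stood in sparse surroundings in both animals. The nearest protein-coding genes are far away, Tbc1d2b at 1087 kb and Plscr5 at 804 kb, and Plscr5 had no promoter peak.

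Around Zic2/Zic5 lay 37 and 47 peaks within 25 kb and 38 and 27 beyond 35 kb, a mean of 1.12 and 0.794 per window in those flanks, above the genome means. A second group of peaks stood before the pair, with 9 and 7 peaks in the window at -90 kb and 11 and 5 in that at -80 kb. The fullest window of each animal at this pair held 14 and 12 peaks, which 0.0396% and 0.0169% of genome windows reached. The choice of the genes favoured such counts here too. These windows also differed, at 0 kb with 14 and 11 peaks and at 10 kb with 10 and 12. Its protein-coding neighbours are close. Gm5089, 5.68 kb past Zic5, had promoter heights of 3.15 and 2.72, and Gm10837, 10.7 kb past Zic2, had 2.997 and 2.22. Part of the Zic2/Zic5 territory is therefore also that of other genes.

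In base composition the peaks of both pairs were richer in CpG than the lists they came from. Median CpG density was 3.63 and 3.21 per 100 bp at Zic1/Zic4 and 4.89 and 3.77 at Zic2/Zic5, where all peaks had 2 and 1.82. Median GC content was near that of all peaks, 53.6% and 51.9% at Zic1/Zic4 and 58.4% and 55.4% at Zic2/Zic5 beside 55.0% and 53.3%. Median width was 220 and 253.5 bp at Zic1/Zic4 and 230 and 240 bp at Zic2/Zic5, beside 180 and 187 bp. The Zic peaks were thus wider and denser in CpG, with little difference in GC content.

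Matches to 13 short motifs were counted in the peaks on both strands. A match is a description of the letters, not of binding. The core of the ZIC proteins' own motif, CCTGCTG, was held by a lower share of Zic peaks than of all peaks. It stood in 2 of 46 and 2 of 20 Zic1/Zic4 peaks and in 1 of 36 and 5 of 45 Zic2/Zic5 peaks, or 4.35%, 10%, 2.78% and 11.1%, where 13.5% and 13.9% of all peaks held it. Of peaks of like width 16.3% and 16.5% held it for Zic1/Zic4 and 15.7% in both animals for Zic2/Zic5. None of these matches had its centre in a footprint. At such numbers of peaks no difference from the whole lists can be read.

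The GC box GGGCGG, the letters bound by SP and KLF factors, was held by 11 of 46 (23.9%) and 4 of 20 (20%) Zic1/Zic4 peaks and by 12 of 36 (33.3%) and 11 of 45 (24.4%) Zic2/Zic5 peaks. Of all peaks 17.3% and 17.4% held it, and of peaks of like width 30.7% and 32.4% for Zic1/Zic4 and 29.5% and 30% for Zic2/Zic5. Beside peaks of their own width, then, only the Zic2/Zic5 peaks of replicate 1 had a higher share. GC boxes inside footprints of both animals stood in 3 of the printed stretches: at chr9:91355861-91355866 in the distal peak, at chr9:91381429-91381434 in the Zic4 intron, and at chr14:122474300-122474305 upstream of Zic2. The Zic1 promoter stretch held 2 further GC boxes, neither inside footprints of both animals.

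The half-site of nuclear factor I proteins, TTGGCA, was held by 3 of 46, 3 of 20, 8 of 36 and 9 of 45 peaks, beside 17.5% and 20.5% of all peaks. In the printed peak past Zic2 it stood at chr14:122484316-122484321, with its centre inside a footprint of both animals and its last base outside. No Zic peak held the AP-1 letters TGANTCA, which 5.29% and 6.29% of all peaks held, nor the GLI letters TGGGTGGTC, which 0.154% and 0.156% held, nor the CTCF motif, which 1.18% of the replicate 1 peaks held. The cyclic AMP response element TGACGTCA was found once, at chr9:91351011-91351018 in the distal stretch past Zic1, with its centre inside a footprint of replicate 1 alone. The NRF1 motif was found once, at chr9:91355916-91355925, across the end of the printed distal peak and with its centre inside a footprint of replicate 1, while the replicate 2 peak ended within it. These sites are single occurrences at 1 locus.

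The other motifs are given as counts of peaks that held them, of 46 and 20 at Zic1/Zic4 and 36 and 45 at Zic2/Zic5. They were the E-boxes CAGATG (10 and 4 Zic1/Zic4 peaks, 5 and 7 Zic2/Zic5 peaks) and CAGCTG (7 and 3, 5 and 7), the SOX letters ACAAAG (7 and 6, 4 and 8), the homeodomain letters TAATTA (1 and 1, 2 and 2) and the ROR and ERR half-site AGGTCA (3 and 4, 5 and 7). For CAGATG, a sequence that proneural factors bind, no match at Zic1/Zic4 had its centre in a footprint. At Zic2/Zic5 1 of 7 matches in replicate 2 did. For CAGCTG 1 of 6 matches did at Zic1/Zic4 in replicate 1, and 1 of 5 at Zic2/Zic5 in replicate 2. No share of matches in a footprint is given over all peaks, and the peaks are few, so nothing is read from these counts.

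Among the GLI and GLIS genes, relatives with similar zinc fingers, 6 of 6 and 5 of 6 had a promoter peak, with 5 in both animals. Of all protein-coding genes 67% and 63.5% had one, and 62.9% in both. Peak density varied among the relatives: Gli1 stood at percentiles 94.5 and 87.4, Glis2 at 85.6 and 91.4, and the others lower. The median percentile of peak density over the 6 relatives was 52.0 and 43.6. Their median promoter height was 1.23 and 0.7999, beside 2.81 and 1.96 over all protein-coding genes, with genes that lacked a promoter peak taken as 0. Gli1, a target and effector of hedgehog signalling, had 8.11 and 6.67 with 11 and 6 peaks. Gli2, the main activator of that pathway, had 3.79 and 2.13 with 20 and 15 peaks in a far longer territory of 239 kb.

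Gli3, which mostly acts as a repressor, had a promoter peak of 0.634 and 0.405. Glis1 stood at 0.699 and 0.435, Glis2 at 1.77 and 1.17, and Glis3 at 0.602 in replicate 1 with none in replicate 2. Each of the 4 Zic genes thus had more peaks per 10 kb than each of these 6 relatives, in both animals. The Zic genes were chosen for many peaks, which largely fixed this order. Their territories, of 24.4 to 46.9 kb, were also far shorter than those of Gli2, Gli3, Glis1 and Glis3, of 220 to 441 kb.

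The 17 transcription factors of the granule cell lineage came closer. Of these 16 and 14 had a promoter peak, with 14 in both animals, at median heights of 7.17 and 6.89 and median density percentiles of 95.2 and 93.4. Neurod1, a factor of granule cell differentiation, had promoter heights of 20.6 and 12.6 with 14 and 16 peaks, or 5.78 and 6.60 per 10 kb. Its relative Neurod2 had 19 and 17 peaks, or 7.84 and 7.01 per 10 kb. Pax6, active from precursors to mature granule cells, had 33 and 37 peaks, or 6.81 and 7.63 per 10 kb, and Mab21l1 8.00 and 7.56 per 10 kb. Zic2 and Zic5 stood above these 4 genes in both animals, while Zic1 and Zic4 stood above them in replicate 1 and below them in replicate 2.

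Barhl2, a homeobox gene of the same lineage, had 23 and 10 peaks and Barhl1 14 and 6, so that both had ratios between animals, 2.30 and 2.33, like those of Zic1 and Zic4. In each animal Barhl2 was denser in peaks than Zic4 (8.97 and 3.90 against 8.74 and 3.62 per 10 kb). Atoh1, which marks the precursors of the rhombic lip, had a promoter peak of only 0.650 and 0.484, with 8 and 2 peaks. Nhlh1 had no promoter peak, and Lmx1a and Meis2 had one in replicate 1 alone, of 0.325 at Lmx1a and 0.499 at Meis2. Density thus varied widely within the lineage list, and no gene of it reached that of Zic2, chosen for its many peaks, in either animal.

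The remaining lineage genes ranged widely. Meis1 had 3.08 and 2.39 peaks per 10 kb and a promoter of 13.1 and 8.66, and Nfix 6.47 and 3.40 with a promoter of 7.17 and 5.92. The long genes Nfia and Nfib, nuclear factor I members, had promoters of 22.3 and 14.3 and of 11.9 and 7.83 but only 1.20 and 1.09 and 1.54 and 1.52 peaks per 10 kb. Etv1, Insm1 and Nhlh2 had 1.80, 4.76 and 2.36 peaks per 10 kb in replicate 1 and 1.62, 3.46 and 2.75 in replicate 2. None of these 7 genes reached the density of any Zic gene in replicate 1.

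The genes most alike each member were those with the smallest distance over 6 percentiles, for peak density, footprint density and promoter height in both animals. Nearest to Zic2 was Cbln1, the granule cell gene for a secreted synapse organiser, with 7.44 and 7.85 peaks per 10 kb and a promoter of 18.6 and 11.3, at a distance of 1.102 percentile points. Next came Pard6a and Acd, both with a promoter height of 18.3 and 10.7. Nearest to Zic1 were Bcl9l (12.6 and 4.48 peaks per 10 kb), Lhx1 (5.87 and 8.07) and Ubtf (5.12 and 4.83), at distances of 1.82 to 2.03.

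For Zic5 the nearest were Nfic (9.44 and 4.03 peaks per 10 kb), Nptx1 (7.23 and 5.17) and Fndc10 (5.42 and 4.52), at distances of 1.61 to 2.58. Zic4, with its low promoter and high density, had no neighbour as close: Rara, Lrrc4b and Ly6g6c stood at distances of 4.03 to 4.89. Genes with overlapping territories, such as the partner in a pair, were left out. The 6 values rest on 2 animals and on measures that rise together, so likeness here is only of these counts.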

How the data were processed

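DNase-seq files of 2 cerebellum libraries were used, 1 per animal, grouped and numbered by the labels. Per the labels and file descriptions, coordinates are on mm10 and each animal's files come from its own alignments. The sources used here do not give the aligner or the callers. The authors deposited peak heights as a signal, which lies on steps of 0.00542 and 0.00988; the depth is unknown beyond that, so intervals were not computed. The authors' deposited false discovery rates, a p-value type of measure, list stretches below 0.05, and every footprint carries the deposited entry 0.01, read as a threshold, so only positions were used. Rates were read as the most significant base in a peak. Peaks were counted where they overlapped a territory by at least 1 bp, each peak once per territory. Ranks and percentiles are among the 21829 protein-coding genes of GENCODE M21, by peaks per 10 kb. Sequences came from GRCm38.p6, with 13 motifs matched on both strands.

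Members and lists were chosen with earlier results of these data known. Genes were named by a rule: the 4 members, the related and lineage lists, the nearest protein-coding gene on each side of each pair, and the 3 genes most like each member by Euclidean distance. A peak, region or motif site singled out beyond these was chosen after its values were seen. Gli4 was not matched by symbol to a protein-coding gene of the annotation and was not used, and 1 further gene of the related list is not reported here. With 1 group of 2 animals no test was run. Alternatives covered the promoter window, the flank, the smaller peak list, equal numbers of peaks, peaks above the median height, the counting rule, the overlap, the rate threshold, the motif rule and each animal alone. Interval counting was checked on simulated data. Python 3.11.15, numpy 2.4.6, pandas 2.3.3, pysam 0.24.0 and matplotlib 3.10.9 were used.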

Additional observations from a re-analysis of the deposited data

How the results depend on the processing

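All 4 members kept a promoter peak in both animals with promoter windows of 500 bp and 2 kb and with peaks above the median height alone. With the smaller peak lists 4 and 3 did, since Zic4 had none in replicate 2. Each pair was also counted without flanks, as 1 stretch that includes any space between its genes. Mean peaks then fell from 33 to 20 at Zic1/Zic4 and from 40.5 to 23 at Zic2/Zic5. Mean footprints at Zic2/Zic5 fell from 112 to 74.0. Peaks with a ZIC core went from 7.17% and 6.94% to 0% at both pairs when the match centre had to lie in a footprint. The mean share of Zic2/Zic5 peaks found in both animals went from 82.2% to 70.8% with a reciprocal overlap of 50%, and its mean share of significant bases from 39.6% to 27.2% with the false discovery rate set to 0.001. At Zic1/Zic4 the same settings took these means from 68.2% to 50.2% and from 25.7% to 19.8%. Without flanks, mean footprints there fell from 91 to 61. With 1 animal left out, peaks at Zic1/Zic4 ranged from 20 to 46 and footprints from 52 to 130, and the difference between the pairs, -2.97 peaks per 10 kb in the mean, ranged from -6.55 without replicate 1 to 0.608 without replicate 2, a change of sign. Of the alternative values of these results, 47 moved by less than the spread between animals or, for counts, by less than 1.5 times. Another 9 moved by more, and 1 changed sign. For shares, leaving out 1 of 2 animals always moves the mean by less than that spread, so those values had to fall among the 47. The 47 also include the Zic1/Zic4 falls in shared peaks, significant bases and footprints, where the animals lay far apart. No paired analysis was possible because both animals belong to 1 group. Depth is unknown, so a peak listed in 1 animal alone is reported as listed, and the part of depth in its absence from the other was not tested.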
